A study of Rattus with 6 samples.

Results

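The genes described here are 42 genes of mitosis and the mitotic spindle, chosen by name and looked up by symbol. They and the other gene lists were chosen with earlier results of these data known. Counts set beside the share over all genes are therefore descriptive. All 42 were among the 16690 genes deposited by the authors, and 41 of them had enough signal to be tested. Expression was measured by RNA sequencing of cultured bone marrow mesenchymal stem cells (BMSC), the adherent stromal cells of the marrow, taken from femurs and tibias of Sprague Dawley rats. The groups were CKD, with 3 libraries from rats in which chronic kidney disease was modelled, and control, with 3 libraries from healthy rats. Both groups carry the same genotype, wild-type, and the same culture: passaged primary cells that had passed flow cytometry for CD29 and CD90 and against CD34 and CD45. How the disease was induced, and the age and sex of the animals, are not given in the sources used here. The study asks which transcripts differ between stem cells of diseased and of healthy animals.

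The labels conflict in several places. The disease model tag gives CKD replicate 1 as control and control replicate 2 as CKD, against the title, library name and column code of each, which were followed. The extract protocol names exosome RNA, while the design text names RNA of the cells. Library names share a start between CKD replicates 1 and 3, and between control replicates 1 and 2, so separate animals are not established for every library and the p-values may measure partly technical spread. Depth, recovered from the FPKM values (fragments scaled for gene length and library depth), ran from 34404037 to 46892613 fragments per library. The members gave between 47 fragments (Birc5 in its lowest library) and 4039 (Mki67 in its highest).

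Both first replicates stood apart from the other libraries of their group in part of the marker genes. Of 12 stromal markers, Thy1 (CD90) stood at 572, 505 and 544 FPKM in CKD and at 590, 793 and 801 FPKM in control. Its CKD libraries all lay below its controls, as for 1433 of all 16690 genes. Itgb1 (CD29) lay between 847 and 1204 FPKM over the 6 libraries. Col1a1 stood at 5299, 2712 and 2620 FPKM in CKD and at 5881, 2858 and 3000 FPKM in control. Eng stood at 10.8, 20.4 and 21.8 FPKM in CKD and at 11.8, 83.4 and 88.8 FPKM in control. Other stromal markers went the other way. Pdgfrb stood at 119, 134 and 149 FPKM in CKD and at 58.8, 115 and 118 FPKM in control. Lum stood at 556, 385 and 326 FPKM in CKD and at 330, 98.2 and 70.3 FPKM in control. Lower levels were found for Vcam1, at 2.12, 8.78 and 6.94 FPKM in CKD and 1.80, 0.829 and 1.56 FPKM in control. The leptin receptor gene Lepr was lower still, from 0.109 to 0.246 FPKM. Pdgfrb and Vcam1 lay higher in every CKD library than in every control library, as did 2824 of all 16690 genes. Ptprc, the gene of CD45, for which the labels give the cells as negative, reached 15.5 FPKM in CKD replicate 2 and 11.4 FPKM in CKD replicate 3, and at most 1.33 FPKM in the other libraries. The summed level of 16 macrophage and other haematopoietic markers was 3224 and 2159 FPKM for the second and the third CKD library, against 21.7 and 14.1 FPKM for the second and the third control library. The first replicates lay between, at 291 FPKM (CKD) and 390 FPKM (control). Lyz2 alone gave 2224 and 1473 FPKM in CKD replicates 2 and 3, and 232 (CKD) and 271 FPKM (control) in the first replicates. Cd74, on the same list, reached at most 0.326 FPKM. Of the defining genes of that list, C1qb and Adgre1 were at 0 in control replicate 3. Among markers of other cells, 2 of 7 for granulocytes, 1 of 6 for lymphocytes and 5 of 6 for endothelium were found in the data, and these were at or near 0 apart from Tek, which reached 2.31 FPKM in control replicate 3. Of 7 erythroid and megakaryocyte markers 3 were found, and Pf4 among them gave 13.1, 150.2 and 102.4 FPKM in CKD and 41.5, 2.15 and 0.847 FPKM in control.

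Mitosis separates the copied chromosomes of a cell into its daughters. Cdk1 bound to A and B cyclins starts it, Polo-like and Aurora kinases build the spindle of microtubules, and kinetochores tie each chromosome to that spindle. The spindle checkpoint holds the cell until every kinetochore is attached, after which the anaphase-promoting complex marks securin and B cyclins for destruction, and a contractile ring cleaves the cell. Many of these genes are transcribed together late in the cell cycle, through B-Myb and FoxM1, and their RNA is low in resting cells. In bulk RNA a larger share of dividing cells and more of these transcripts per dividing cell cannot be told apart.

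All 42 genes were at a higher level in each CKD library than in each control library. Of all 16690 genes, 16.9% separated the groups in that way. Mean FPKM in CKD over that in control ran from 1.69 (Anln) to 4.52 (Ccna2), with a median ratio of 3.16. Levels were modest: group means ran from 1.24 to 20.3 FPKM in CKD and from 0.424 to 7.66 FPKM in control. Summed over the 42 genes, the level was 234, 331 and 312 FPKM in CKD replicates 1, 2 and 3, and 59.5, 126 and 103 FPKM in control replicates 1, 2 and 3. By limma, with adjustment over all 10638 tested genes, 16 members rose in CKD and 0 fell, against a background of 1.33% of tested genes called higher. None had an unadjusted p under 0.05 in the falling direction, and limma-voom on the recovered fragments also called 0 lower. Among the 25 tested members that missed the threshold, limma adjusted p ran from 0.0504 to 0.351, and 20 of them were under 0.1. Before adjustment 40 of the 41 had p under 0.05, Anln being the exception, against 1555 of the 10638 tested genes in the higher direction.

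The median log2 fold change of the tested members was 1.21, on the log2(FPKM + 1) scale, against 0.053 over all tested genes. That scale understates the change of genes near 1 FPKM, and on the recovered fragments the members' median was 1.74 by limma-voom. The filter asked for at least 1 FPKM in at least 3 libraries, and Foxm1, Bub1b, Kif2c and Aspm passed it through the CKD libraries alone. Of these 4, 3 (Foxm1, Bub1b and Kif2c) were among the 16 called. Over all tested genes, 118 passed in that way and 40 of those were called higher. Without a filter the median over all 42 was 1.20, and 4 members were called (Cks2, Plk1, Aurka and Foxm1), against 0.485% of all genes called higher.

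**Figure D1:**
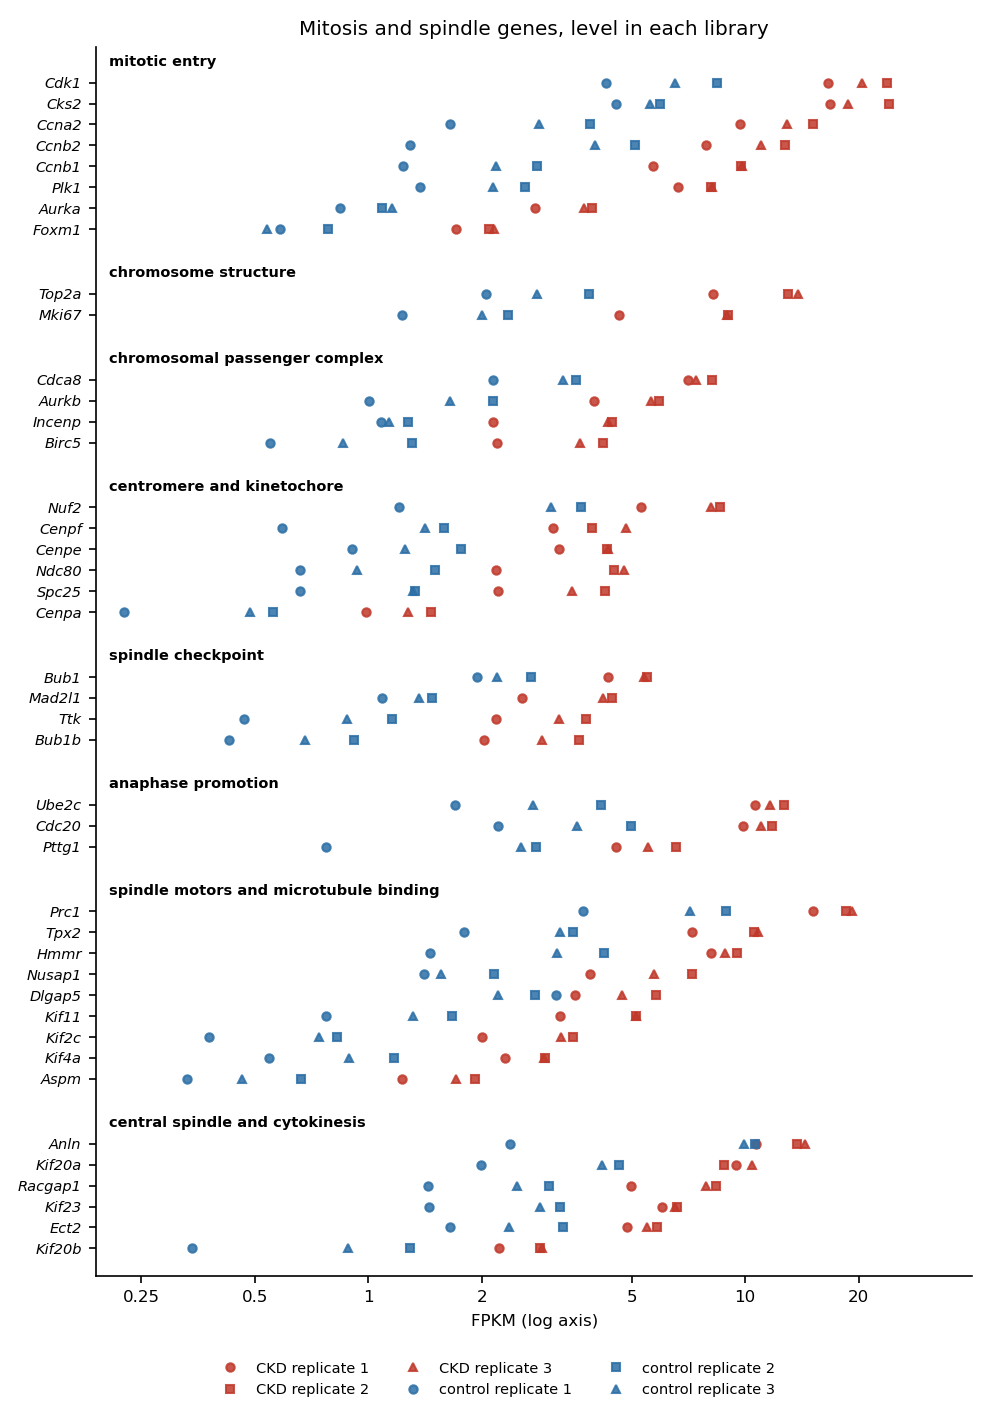
Level of each of the 42 genes in each of the 6 libraries, in FPKM on a log axis, grouped by role. Red symbols are CKD and blue symbols control libraries, and the symbol's shape gives the replicate number. In every line the 3 red symbols lie to the right of the 3 blue ones, and the blue circle of control replicate 1 is leftmost in 40 of 42 lines.

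Mitotic entry held the largest number of calls, with 6 of its 8 members higher in CKD. Cks2 (NCBI Gene 498709), the small subunit that binds cyclin-dependent kinases, stood at 16.8, 24.1 and 18.7 FPKM in CKD replicates 1 to 3 and at 4.53, 5.95 and 5.60 in control replicates 1 to 3. Its lowest CKD library was 2.83 times its highest control library, the widest gap of the 42 genes. The log2 fold change was 1.71 ± 0.16 (SE), with a limma adjusted p of 0.0183, the lowest among the members.

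Plk1 (NCBI Gene 25515), the Polo-like kinase of spindle assembly and mitotic entry, gave 6.63, 8.12 and 8.18 FPKM in CKD and 1.37, 2.61 and 2.14 FPKM in control. Its log2 fold change was 1.52 ± 0.18 (SE; limma adjusted p = 0.0297). Aurka (NCBI Gene 261730), the Aurora kinase of centrosomes and spindle poles, gave 2.77, 3.93 and 3.74 FPKM in CKD against 0.842, 1.09 and 1.16 FPKM in control (limma adjusted p = 0.0308 for a log2 fold change of 1.13 ± 0.13 SE). Neither kinase had overlapping groups, and CKD replicate 1 was the lowest CKD library for both.

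The other called entry genes were Foxm1, a transcription factor of the late cell cycle, Ccna2, which encodes cyclin A, and Cdk1, the mitotic kinase itself. Their log2 fold changes ran from 0.87 (Foxm1) to 1.87 (Ccna2), with limma adjusted p between 0.0347 and 0.0462. Ccna2 had the largest ratio of all members, at 12.6 ± 2.75 FPKM in CKD and 2.79 ± 1.11 FPKM in control (mean ± SD, n = 3 each). Cdk1 was the most abundant member in CKD, with a mean of 20.3 ± 3.64 FPKM against 6.41 ± 2.09 in control. The B cyclins, the partners of Cdk1, did not pass: Ccnb1 had a log2 fold change of 1.61 with a limma adjusted p of 0.0513. Ccnb2 varied more within control, from 1.29 FPKM in replicate 1 to 5.12 in replicate 2, and had a limma adjusted p of 0.123.

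Chromosome structure was represented by Top2a (NCBI Gene 360243), the topoisomerase that untangles sister DNA, and Mki67, which coats mitotic chromosomes and is the common marker of proliferating cells. Top2a stood at 8.20, 13.0 and 13.8 FPKM in CKD and at 2.05, 3.85 and 2.81 FPKM in control. It rose by a log2 fold change of 1.70 ± 0.25 (SE; limma adjusted p = 0.0439). Mki67 gave 4.64, 8.99 and 8.96 FPKM in CKD and 1.23, 2.35 and 2.01 FPKM in control. Its groups were as far apart in ratio as those of Top2a (4.05 and 4.02), but its limma adjusted p was 0.0587. Relative to their mean its CKD libraries spread more, at 7.53 ± 2.50 FPKM against 11.7 ± 3.05 FPKM for Top2a (mean ± SD, n = 3 each).

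The chromosomal passenger complex corrects faulty attachments and later marks the cleavage plane, and 1 of its 4 members was called. That member was Cdca8 (NCBI Gene 500545), which encodes borealin, at 7.04, 8.17 and 7.41 FPKM in CKD and 2.14, 3.57 and 3.28 FPKM in control (limma adjusted p = 0.0438 for a log2 fold change of 1.11 ± 0.16 SE). Its kinase Aurkb, its scaffold Incenp and the survivin gene Birc5 had log2 fold changes from 1.06 (Incenp) to 1.26 (Aurkb), with limma adjusted p from 0.0504 (Aurkb) to 0.0843 (Incenp). Incenp, singled out after its values were seen, was nearly flat among the controls, at 1.08, 1.28 and 1.13 FPKM, while CKD replicate 1 (2.14 FPKM) lay well below CKD replicates 2 and 3 (4.44 and 4.33 FPKM).

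Centromere and kinetochore genes gave 1 call among 5 tested. Cenpe (NCBI Gene 362044), the kinesin-like motor that moves chromosomes to the spindle equator, stood at 3.21, 4.29 and 4.32 FPKM in CKD and at 0.904, 1.76 and 1.25 FPKM in control (limma adjusted p = 0.0447 for a log2 fold change of 1.11 ± 0.17 SE). Cenpf, a large protein of the outer kinetochore, and the subunits of the microtubule-binding NDC80 complex Ndc80, Nuf2 and Spc25 had log2 fold changes from 1.02 (Spc25) to 1.24 (Nuf2), with limma adjusted p from 0.070 to 0.117. Cenpa, the centromeric histone, was too low for the test, at 0.985, 1.47 and 1.27 FPKM in CKD and 0.225, 0.560 and 0.487 FPKM in control. In the fit without a filter its log2 fold change was 0.66, with a limma adjusted p of 0.0925.

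Of the 4 spindle checkpoint genes 2 were called, both kinases or kinase-like partners at the kinetochore. Bub1 (NCBI Gene 296137) gave 4.32, 5.50 and 5.41 FPKM in CKD and 1.94, 2.71 and 2.19 FPKM in control, a log2 fold change of 0.89 ± 0.13 (SE; limma adjusted p = 0.0439). Bub1b (NCBI Gene 171576), which encodes BubR1 of the mitotic checkpoint complex, was lower in all libraries, at 2.03, 3.62 and 2.89 FPKM in CKD and 0.428, 0.918 and 0.679 FPKM in control. Its ratio of group means was larger, 4.22 against 2.23 for Bub1, and its log2 fold change was 1.19 ± 0.19 (SE; limma adjusted p = 0.0471). Bub1b passed the filter through CKD alone, and without a filter its limma adjusted p was 0.0652. Mad2l1, the inhibitor of Cdc20, and the checkpoint kinase gene Ttk had log2 fold changes of 1.02 and 1.14 and limma adjusted p of 0.0595 and 0.0618.

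Anaphase promotion gave 2 calls among 3 members. Ube2c (NCBI Gene 296368), the ubiquitin-conjugating enzyme that works with the anaphase-promoting complex, stood at 10.6, 12.6 and 11.6 FPKM in CKD and at 1.70, 4.14 and 2.74 FPKM in control (limma adjusted p = 0.0417 for a log2 fold change of 1.76 ± 0.24 SE). Cdc20 (NCBI Gene 64515), the activator of that complex, stood at 9.85, 11.81 and 11.05 FPKM in CKD and at 2.21, 5.00 and 3.58 FPKM in control (limma adjusted p = 0.0492 for a log2 fold change of 1.42 ± 0.23 SE). For both genes the CKD libraries lay close together and the controls spread widely. Pttg1, which encodes securin, a substrate of the complex, had a log2 fold change of 1.17 and a limma adjusted p of 0.123.

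Among the 9 spindle motors and microtubule-binding proteins 3 rose. Kif4a (NCBI Gene 84393), a chromosome-bound kinesin, gave 2.31, 2.95 and 2.93 FPKM in CKD and 0.545, 1.17 and 0.889 FPKM in control (limma adjusted p = 0.0445 for a log2 fold change of 1.01 ± 0.15 SE). Kif2c (NCBI Gene 171529), a kinesin that shortens microtubules at centromeres, gave 2.01, 3.51 and 3.25 FPKM in CKD and 0.378, 0.827 and 0.742 FPKM in control, and its ratio of group means, 4.51, was close to that of Ccna2. It had a log2 fold change of 1.24 ± 0.20 (SE; limma adjusted p = 0.0463). Kif2c also passed the filter through CKD alone, and without a filter its limma adjusted p was 0.0647. Tpx2 (NCBI Gene 311546), the activator of Aurora A on the spindle, gave 7.22, 10.6 and 10.8 FPKM in CKD and 1.79, 3.49 and 3.22 FPKM in control (limma adjusted p = 0.0471 for a log2 fold change of 1.47 ± 0.24 SE).

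The remaining 6 of that group were the kinesin gene Kif11, whose product pushes the spindle poles apart, the spindle-associated genes Nusap1, Hmmr, Aspm and Dlgap5, and Prc1, which bundles microtubules at the spindle midzone. Limma adjusted p ran from 0.0509 (Kif11) to 0.138 (Dlgap5), and log2 fold changes from 0.61 (Dlgap5) to 1.38 (Hmmr). Dlgap5, singled out after its values were seen, differed from the rest in its controls. It stood at 3.15 FPKM in control replicate 1, above control replicates 2 and 3 (2.77 and 2.21 FPKM), and only a little below CKD replicate 1 (3.55 FPKM).

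None of the 6 genes of the central spindle and cytokinesis was called by limma, although 5 of them had an unadjusted p under 0.05, and limma-voom also called 0. Kif23 (NCBI Gene 315740), a kinesin of the centralspindlin complex, had the lowest adjusted p of the group. It stood at 6.02, 6.61 and 6.53 FPKM in CKD and at 1.45, 3.22 and 2.85 FPKM in control (limma adjusted p = 0.0684 for a log2 fold change of 1.11 ± 0.21 SE). Its partner Racgap1, the exchange factor gene Ect2 and the kinesin genes Kif20a and Kif20b had log2 fold changes from 0.93 (Ect2) to 1.29 (Racgap1), with limma adjusted p from 0.0718 to 0.0798. Anln, which encodes the ring protein anillin, gave 10.7, 13.7 and 14.4 FPKM in CKD and 2.38, 10.6 and 9.96 FPKM in control. Its groups barely separated, the lowest CKD library being 1.01 times the highest control library, and its limma adjusted p was 0.351.

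**Figure D2:**
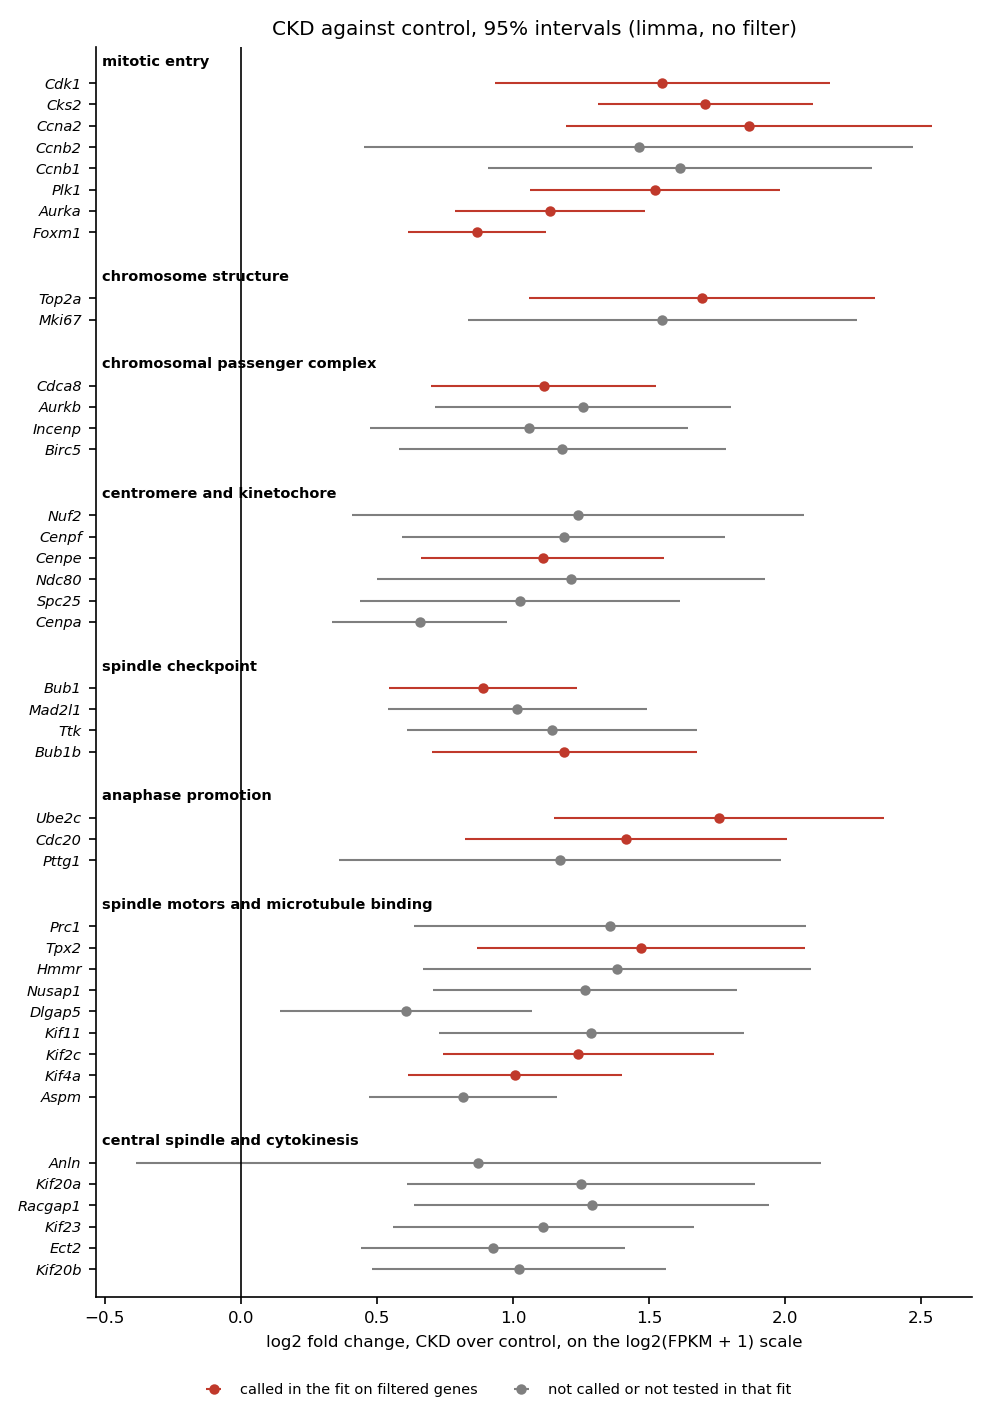
Log2 fold change of CKD over control for each of the 42 genes, on the log2(FPKM + 1) scale, with 95% intervals from limma without a filter, so that Cenpa is included. Red points are the 16 genes called in the fit on filtered genes and grey points those not called or not tested in it. Every interval lies above 0 except that of Anln.

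Replicate libraries differed in a way that most of the 42 genes shared. Control replicate 1 was the lowest library for 40 genes, Foxm1 and Dlgap5 being the exceptions, and control replicate 2 was the highest control for 40. In CKD, replicate 1 was the lowest library of its group for 41 genes, the exception being Kif20a, with the highest level in replicate 2 for 30 genes and in replicate 3 for 12. Each gene's levels were then expressed as log2 of FPKM over the gene's geometric mean. The median of that deviation over the 42 genes was 0.53, 1.08 and 0.98 in CKD replicates 1 to 3, and -1.49, -0.38 and -0.75 in control replicates 1 to 3.

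**Figure D3:**
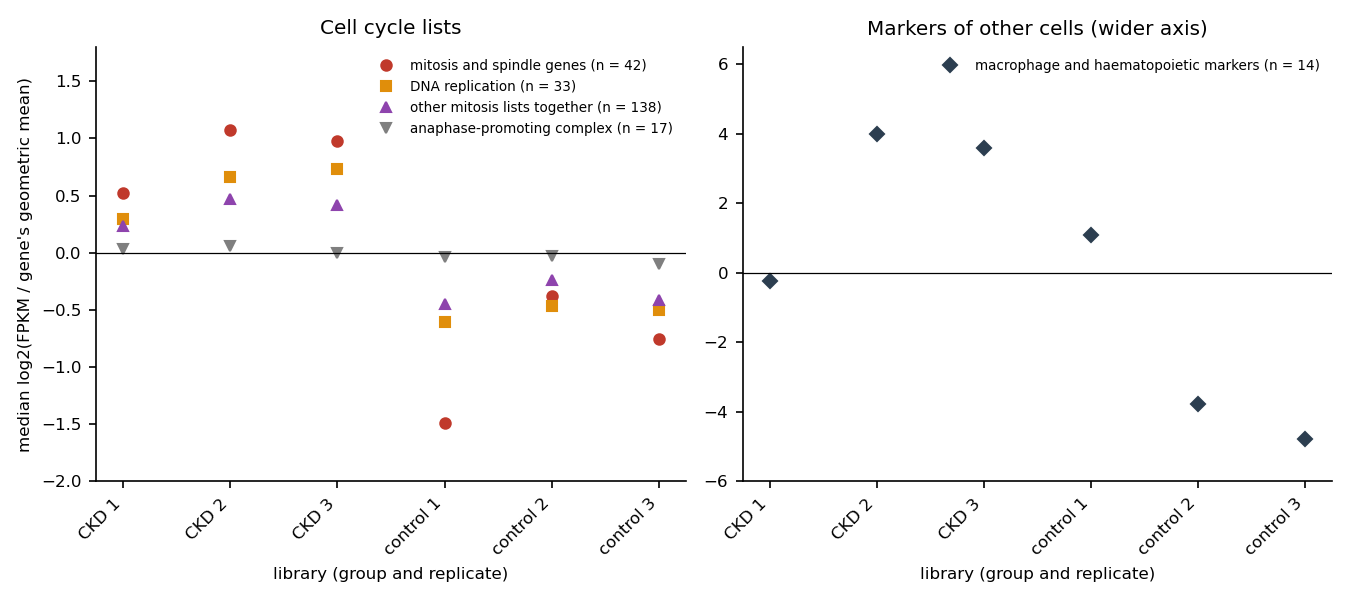
Median over genes of log2 of FPKM divided by the gene's geometric mean over libraries, for each of the 6 libraries (n is the number of genes above 0 in all libraries). In the left panel the 42 mitosis and spindle genes range from 1.08 in CKD replicate 2 down to -1.49 in control replicate 1, while the anaphase-promoting complex stays near 0. The right panel, on a wider axis, shows macrophage and haematopoietic markers. These were at -0.22, 3.99 and 3.58 in CKD replicates 1 to 3 and at 1.09, -3.77 and -4.78 in control replicates 1 to 3.

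Macrophage markers also differed between the groups in replicates 2 and 3. Ratios are given here for those replicates and, apart from them, for the first replicates, a single library per group. Control replicate 1 was the lowest library for 40 of the 42 members, and CKD replicate 1 carries the control tag. Between these libraries all 42 genes were higher in CKD, by a median ratio of 4.06, ranging from 1.13 (Dlgap5) to 6.52 (Kif20b). Over all 16690 genes, 8487 were higher in that CKD library and the median ratio was 1.00. Of the 16 macrophage and haematopoietic markers, Adgre1 alone was higher in the CKD library of that pair (1 of 16). In replicates 2 and 3 the ratio of means had a median of 3.00, ranging from 1.37 (Anln) to 4.31 (Kif2c). The first replicates gave the larger ratio for 33 genes and the smaller for 9, among them Incenp (1.98 against 3.64) and Dlgap5 (1.13 against 2.12). These ratios describe single libraries and pairs, and the 42 genes are no replicates. The difference between the ratios was not tested, and neither was a cause. With the mean of the macrophage markers as a covariate, which leaves few degrees of freedom, limma called 0 of 41 members. In that fit the members' median log2 fold change was 1.23, all 41 values were above 0 and 35 had an unadjusted p under 0.05, against 1209 of the 10638 tested genes in either direction.

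**Figure D4:**
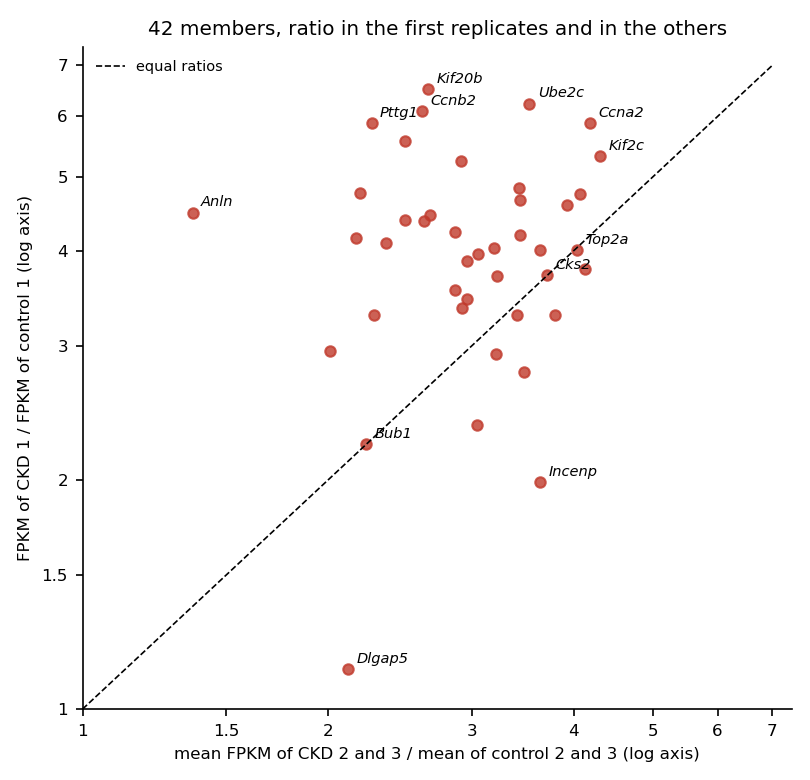
Ratio of CKD to control FPKM in the first replicates (vertical log axis) against the ratio of means in replicates 2 and 3 (horizontal log axis), 1 point for each of the 42 genes. The dashed line marks equal ratios, and 33 points lie above it. All points lie above 1 on both axes, with Dlgap5 lowest on the vertical axis at 1.13 and Anln leftmost at 1.37.

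The number of calls depended on single libraries. Without CKD replicate 1 limma called 34 of 41 members (10.7% of all tested genes were called higher), and without control replicate 1 it called 33 (6.89%). Without both first replicates all 41 were called, but so were 34.7% of all tested genes. Leaving out replicate 2 or 3 of CKD, or replicate 2 or 3 of control, each in turn, left 0 members called. In these 4 fits 39 or 40 members had an unadjusted p under 0.05, against 1308 to 1405 of all tested genes in either direction. A filter on the mean over all libraries left 5 members called (0.511% of tested genes), and limma-voom called 5 (0.517%): Cks2, Plk1, Aurka, Foxm1 and Ube2c. In each of these fits every tested member had a log2 fold change above 0.

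**Figure D5:**
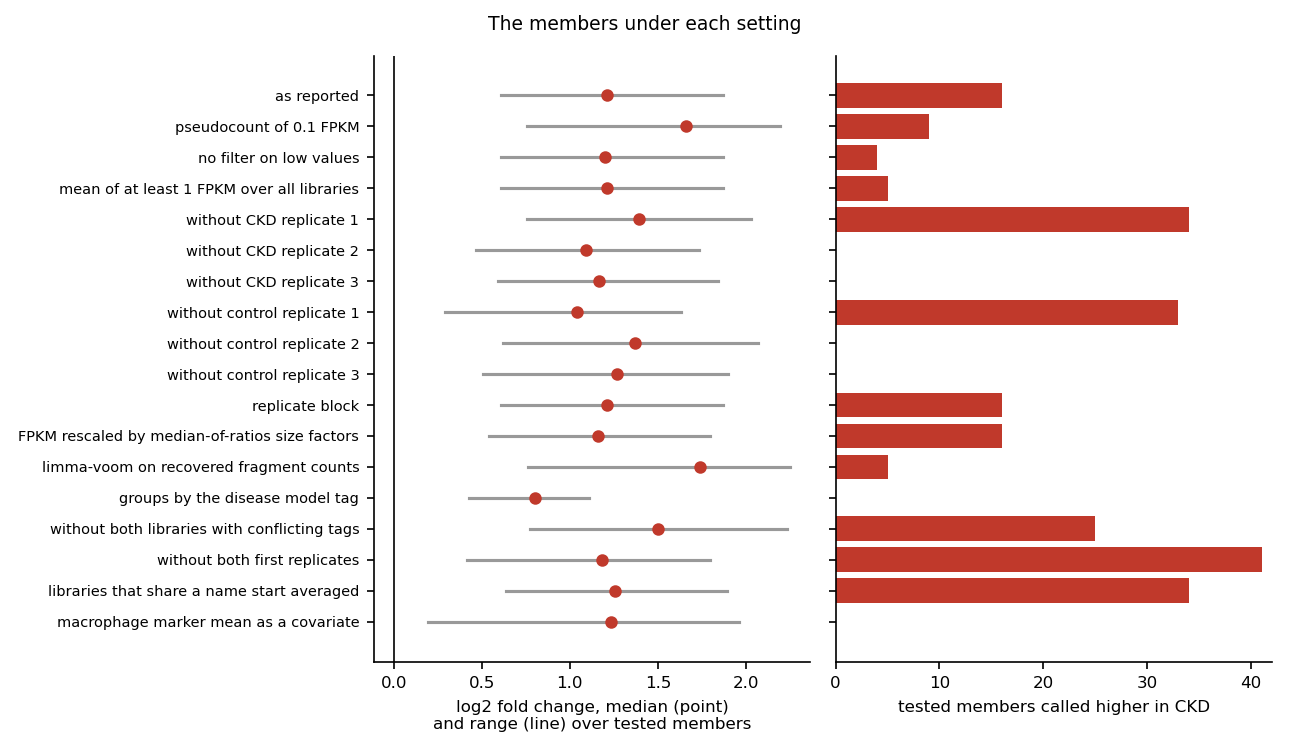
Left panel: median (point) and range (line) of the members' log2 fold change, CKD over control, under each way of processing or leaving out libraries; the limma-voom values are on a log2 scale of depth-scaled counts and the others on that of log2(FPKM + pseudocount). Right panel: number of tested members called higher. The medians lie between 0.80 and 1.74 and all ranges lie above 0, while the calls run from 0 to 41.

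The authors' deposited table gave a q-value under 0.05 with higher levels in CKD to 40 of the 42 genes, against 6.72% of all its genes. The exceptions in the authors' deposited table were Pttg1 (q = 0.0564) and Anln (q = 0.488). Log2 fold changes in the authors' deposited table ran from 0.67 (Anln) to 2.09 (Ccna2), with a median of 1.57 over the 42 genes.

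Other genes of mitosis were taken from 7 lists by function, with 138 genes found and 118 tested. Of these 28 rose and 0 fell by limma, against 1.33% of all tested genes called higher, and the median log2 fold change was 0.46. Differences between the lists were not tested. Of the 28 called genes, 12 had every control library under 1 FPKM and so passed the filter through the CKD libraries alone. Without a filter 11 of all 138 were called, against 0.485% of all genes called higher. Kinetochore and centromere genes gave 7 calls among 30 tested (median log2 fold change 0.61), led by Cenpn, a reader of the centromeric nucleosome (2.71 ± 0.374 FPKM in CKD and 1.06 ± 0.0809 in control, mean ± SD, n = 3 each), Oip5 and Cenpk. Spindle, centrosome and motor genes gave 7 calls among 18 tested (median 1.03), led by Ckap2l, Depdc1 and the kinesin gene Kif18b. Among the condensins, cohesins and their partners 4 of 18 were called (median 0.39). These were led by Ncapg and Smc2 of condensin and by Sgo1, the protector of centromeric cohesion, which stood at 1.49 ± 0.388 FPKM in CKD and 0.251 ± 0.0688 in control.

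The list of entry kinases and phosphatases, which also held the cyclin gene Ccnf, gave 4 calls among 13 tested (median log2 fold change 0.35). The first of them were Pbk, Ccnf and Melk. Transcription factors of the cell cycle gave 2 calls among 12 (median 0.11), namely E2f5 and Mybl2, which encodes B-Myb. Mybl2 averaged 2.65 ± 0.826 FPKM in CKD and 0.439 ± 0.189 in control, with a limma adjusted p of 0.0445. It passed the filter through CKD alone, and without a filter its limma adjusted p was 0.0626. For the tubulins 3 of 10 were called (median 0.55), namely Tuba1c, Tuba1b and Tubb2b, whose values are uncertain because tubulin genes are near copies that can share reads. The anaphase-promoting complex and its regulators had a median log2 fold change of 0.048, close to that of all tested genes, and 1 of 17 was called. That gene was Fbxo5, which encodes the inhibitor Emi1, at 2.35 ± 0.562 FPKM in CKD and 0.761 ± 0.108 in control (limma adjusted p = 0.0475). Its controls were all under 1 FPKM too, and without a filter its limma adjusted p was 0.0652. Of the 138 genes in the 7 lists, 98 lay higher in every CKD library than in every control library, against 16.9% of all 16690 genes.

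Of the genes of DNA replication, which act before mitosis, 29 were tested. By limma 10 rose and 0 fell, against 1.33% of all tested genes called higher, with a median log2 fold change of 0.75. Of the 33 found, 30 were higher in every CKD library than in every control library, against 16.9% of all genes. Of the 10 called, 4 passed the filter through CKD alone. Without a filter 4 of 33 were called (0.485% of all genes), and limma-voom called 5 of 29 (0.517% of tested genes). Rrm1, a subunit of ribonucleotide reductase named after its values were seen, had a log2 fold change of 0.06 (limma adjusted p = 0.931). The called genes with the lowest adjusted p were Cdc6, which loads the replicative helicase, the primase gene Prim1 and the clamp loader gene Rfc3. Prim1 averaged 18.3 ± 2.56 FPKM in CKD and 6.92 ± 1.07 in control (limma adjusted p = 0.0291). The controls of this list lay closer together than those of the mitosis genes: its median deviations were -0.60, -0.46 and -0.50 in control replicates 1 to 3. Control replicate 1 minus the mean of control replicates 2 and 3 was -0.12 for DNA replication and -0.93 for the 42 mitosis genes, a difference that was not tested.

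Cyclins and kinases of G1, the phase before replication, gave 1 call among 8, against 1.33% of all tested genes called higher. The called gene was Ccne2, which encodes a cyclin E (2.52 ± 0.404 FPKM in CKD and 0.837 ± 0.122 in control, limma adjusted p = 0.0357). It passed the filter through CKD alone, its controls all being under 1 FPKM, and without a filter its limma adjusted p was 0.0481. Inhibitors of cyclin-dependent kinases had a median log2 fold change of -0.26, and limma called 0 of 8, as did limma-voom, with 2 higher and 2 lower at an unadjusted p under 0.05. The lowest adjusted p among them was that of Cdkn2a, a locus of growth arrest and senescence, at 22.9 ± 1.26 FPKM in CKD and 34.9 ± 7.03 in control (limma adjusted p = 0.130 for a log2 fold change of -0.57). Every CKD library lay below every control library for that gene. Of the 8 inhibitors, 3 separated in that direction (Cdkn1b, Cdkn2a and Cdkn2b) and 2 in the other (Cdkn2c and Cdkn3). Of all 16690 genes, 1433 separated in the lower and 2824 in the higher direction.

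For the cell type markers limma called 0 of 11 tested stromal genes (2 higher and 1 lower at an unadjusted p under 0.05) and 0 of 13 macrophage and haematopoietic genes (9 higher), as did limma-voom. The lowest adjusted p among stromal markers was that of Vcam1 (limma adjusted p = 0.159), and among macrophage markers that of Lyz2 (0.159 by limma). Lyz2, a macrophage lysozyme, stood at 232, 2224 and 1473 FPKM in CKD and at 271, 8.56 and 3.87 FPKM in control, so its groups overlapped. Adgre1, which the filter dropped, was higher in every CKD library than in every control library. The authors' deposited table gave a q-value under 0.05 with higher levels in CKD to 4 of the 16 macrophage and haematopoietic markers, against 6.72% of all its genes.

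Grouping the libraries by the disease model tag in place of the titles put CKD replicate 1 with the controls and control replicate 2 with CKD. Limma then called 0 genes in either direction and 0 members, with 641 tested genes and 0 members at an unadjusted p under 0.05. The members' median log2 fold change under that grouping was 0.80.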

How the data were processed

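RNA was sequenced from 3 CKD and 3 control libraries (poly-A selected and stranded, per the labels' protocols). The submitters' processing notes name HISAT2 2.1.0, HTSeq 0.11.2, DESeq 1.34.1 and DESeq2 1.22.2, besides SAMtools 1.9 and FastQC 0.11.9, and the build mRatBN7.2, with no settings. The authors deposited 1 table, written with decimal commas: FPKM for each library, group means of normalized counts, and p-value, q-value, fold change and log2 fold change, per the file headers. Whole fragment counts were recovered from FPKM and the group means, with 100140 of 100140 values whole within 0.01, and gave the depth. At the median gene length, 3 fragments equal 0.0199 to 0.0272 FPKM, depending on the library, which covers counting error only.

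The groups were compared on log2(FPKM + 1) in R 4.3.3 with limma 3.58.1, using its moderated two-sided test and mean-variance trend. Adjustment (Benjamini-Hochberg) ran over the 10638 genes that reached 1 FPKM in 3 or more libraries, and genes under 0.05 were called. The fit was tested on simulated counts. Each gene was drawn independently there, without the shared differences between replicate libraries seen here, so that test does not cover them. Same-numbered libraries were not paired: the correlations of their deviations from the group means were 0.036, -0.031 and 0.109.

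The members and the gene lists were chosen with earlier results of these data known. Every member was named under its role, with full values for up to 3 called members with the lowest adjusted p, or the lowest where none was called; up to 3 genes of each other list were named in the same way. Of 283 genes listed, 268 were found. All 42 symbols and identifiers matched a RefSeq gene table of assembly GRCr8. Because that is another assembly, no positions are given, and sequences were not analysed here. Alternatives were other pseudocounts, filters, scalings, tests, groupings and covariates, and leaving out libraries.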

Additional observations from a re-analysis of the deposited data

How the results depend on the processing

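Every tested member had a log2 fold change above 0 under every alternative run, with medians between 0.80 and 1.74, and 0 members were called lower in any. The counts of calls moved far more. Of the tested genes 142 were called higher and 78 lower as reported, against 81 higher without a filter on low values (4 members), 55 higher and 44 lower with a filter on the mean (5 members), and 55 higher and 42 lower by limma-voom (5 members). A pseudocount of 0.1 FPKM left 9 members called (111 genes higher). Leaving out 1 library at a time gave between 1 and 1139 genes higher, between 5 and 546 lower and between 0 and 34 members, and no member was called in all 6 of these fits. Without both first replicates, 3689 genes were higher and 2162 lower, with 41 members called. Without both libraries whose tags conflict, 237 were higher, with 25 members called. Averaging libraries that share a name start gave 174 higher and 85 lower, with 34 members. Grouping by the disease model tag gave 0 genes higher, 0 lower and 0 members. The macrophage covariate gave 6 higher and 11 lower with 0 members, and turned Pf4, a platelet chemokine gene, to a log2 fold change of -0.57. With fewer libraries or a covariate fewer degrees of freedom remain, and the cause of the changes in the counts was not tested. Rescaling FPKM by size factors shifted the median of all tested genes from 0.053 to -0.016 and left 16 members called.

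Correlations between same-numbered libraries were weak and neither show nor exclude a pairing by replicate number. With the replicate block 60 genes were higher and 28 lower, and 16 members were called, 9 of them among the 16 reported. CKD replicates 1 and 3 correlated best with the control of their own number (0.036 and 0.109), and CKD replicate 2 did not (-0.031).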
